A study of Mus musculus with 20 samples.

Results

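The genes that write, maintain and remove 5-methylcytosine in DNA were followed through 20 breast tumors. The 10 genes were taken by symbol from the 43346 genes of the count table (Dnmt1, Dnmt3a, Dnmt3b, Uhrf1, Uhrf2, Hells, Tet1, Tet2, Tet3 and Tdg), and all 10 were found and had enough counts to be tested. The tumors came from 20 female [BALB/c-neuT x FVB/J] F1 mice, 1 tumor per mouse, and each carried the activated Her2/neu transgene inherited from a BALB/c-neuT father, with a wildtype FVB/J mother. The transgene is driven by the MMTV promoter, which is active in mammary epithelium. No mouse was treated, no normal mammary gland was measured, and every tumor was taken when it, or another tumor of the same mouse, had reached a set size. The sample names carry Lo (n = 9) or Hi (n = 11). The labels do not say what these stand for, and both groups share strain, transgene and tissue.

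Methylation of CpG sites is copied after DNA replication by Dnmt1, which Uhrf1 brings to hemimethylated sites. Dnmt3a and Dnmt3b place new methyl groups, and Hells is a chromatin remodeler that opens nucleosomal DNA to these enzymes. The TET dioxygenases (Tet1, Tet2 and Tet3) oxidize 5-methylcytosine, and Tdg, a DNA glycosylase, excises the further oxidized bases so that base excision repair can restore an unmodified cytosine. Uhrf2 is the paralog of Uhrf1 and binds hydroxymethylated DNA.

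The total count of a tumor ranged from 38765682 to 65465755, of which a pair of rows over a ribosomal RNA gene took 6.29% to 27.7%. Levels are given as CPM, a gene's counts relative to a library total scaled by TMM, or as RPKM, the same per length of the gene as listed in the table, where genes are compared with each other. The tissue label was checked against markers: the 10 epithelial genes (Epcam, keratins, claudins and others) summed to between 2831 and 4610 CPM, the 13 leukocyte genes to between 254 and 436 CPM, the 10 fibroblast genes to between 732 and 2671 CPM, the 9 endothelial genes to between 75.7 and 195 CPM and the 7 adipocyte genes to between 6.47 and 55.8 CPM. No gene of these 5 lists was at 0 in all tumors. The pieces sequenced were bulk tissue, so fewer cells of a type and less RNA per cell cannot be told apart.

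The order of the members by RPKM put the maintenance pair first. Dnmt1 had a median of 17.6 RPKM (14.5 in Hi 11 to 20.7 in Lo 7) and Uhrf1 a median of 15.2 RPKM (11.2 in Hi 8 to 20.1 in Hi 1). Dnmt1 was the higher of this pair in 17 of 20 tumors, so the pair did not separate. Tet3 followed at a median of 7.93 RPKM (6.17 to 9.86), and its highest tumor lay below the lowest tumor of Uhrf1. Uhrf2 (7.68 RPKM, 6.95 to 9.34) and Dnmt3a (7.21 RPKM, 6.10 to 8.32) overlapped the range of Tet3, which was above Uhrf2 in 13 of 20 tumors. Tet2 had a median of 4.77 RPKM (3.39 to 6.93).

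The lower part of the order held Tdg, Hells, Tet1 and Dnmt3b. Tdg (3.76 RPKM, 3.37 to 4.18) and Hells (3.72 RPKM, 2.19 to 4.81) were equal neighbors, with Tdg above Hells in 10 of 20 tumors. Tet1 ranged from 0.878 to 1.96 RPKM, and all of its tumors lay below all tumors of Hells. Dnmt3b was the lowest member at 0.915 RPKM (0.669 to 1.51), on 159 to 503 reads per tumor. Among the TET genes the order was therefore Tet3, Tet2, Tet1, and among the de novo enzymes Dnmt3a stood above Dnmt3b in every tumor. For Tet1, Tet2, Tet3 and Dnmt1 the listed gene length is shorter than the summed exons of GENCODE M21. It was 9179 against 16870 bases for Tet2, 11999 against 16695 for Tet3 and 6304 against 7377 for Dnmt1. Their RPKM would thus be lower with the longer length. Their places among their neighbors rest on the listed length, and the order with the longer one was not computed.

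**Figure D1:**
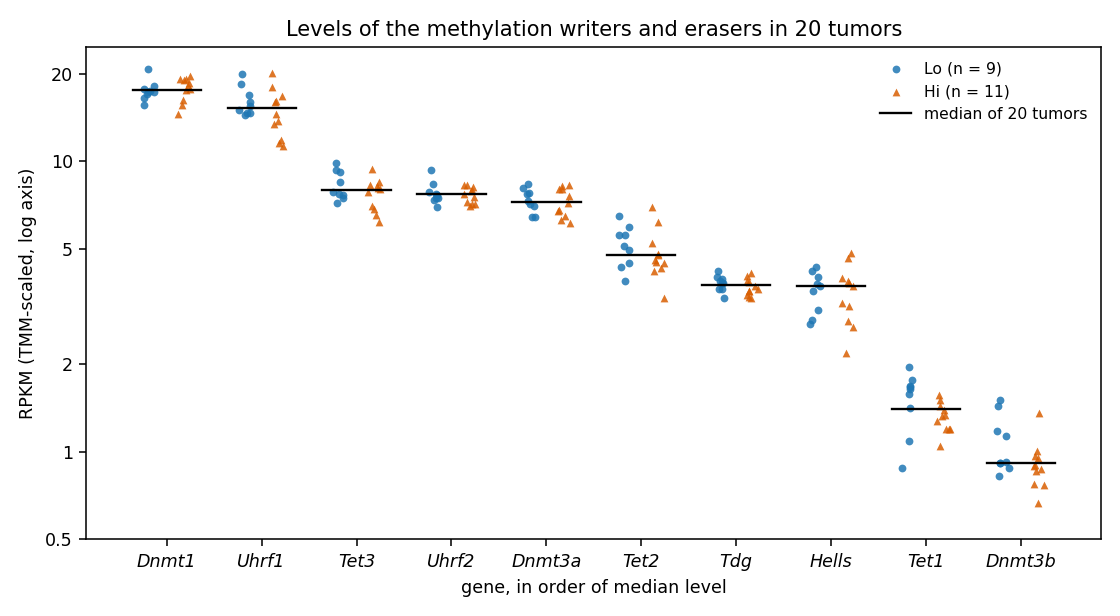
RPKM (log axis) of each member in the 9 Lo tumors (circles) and the 11 Hi tumors (triangles), with a bar at the median of the 20 tumors. Dnmt1 and Uhrf1 lie between 11.2 and 20.7 RPKM, above every value of the other 8 genes, and the Lo and Hi points overlap in each gene.

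Members differed in how much they varied between tumors. Tdg was the steadiest, with a standard deviation (SD) of log2 CPM of 0.09 and a highest tumor 1.24 times the lowest. Of the 500 genes nearest to it in level, 0.4% had a smaller SD. Uhrf2 (SD 0.10, 7.2% smaller) and Dnmt1 (SD 0.12, 17.0% smaller) were likewise on the steady side of genes at their level. Hells (SD 0.29, 86.6% smaller), Tet2 (SD 0.26, 85.6% smaller), Tet1 (SD 0.28, 82.4% smaller) and Uhrf1 (SD 0.24, 79.2% smaller) were on the variable side. Dnmt3b had the largest SD of the members (0.30) and a 2.26-fold range, but 58.4% of genes at its low level had a smaller SD. Counting error alone gives an SD of 0.09 for Dnmt3b and 0.05 for Tdg on the same scale.

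Lo and Hi tumors were compared in edgeR by its quasi-likelihood test over 18883 genes, with p-values adjusted by the Benjamini-Hochberg method. No gene passed an adjusted p of 0.05 (a background of 0%), while 1045 genes had an unadjusted p under 0.05 and DESeq2 called 1 gene. Dnmt3b had the largest difference of the members. It stood at 5.52 ± 1.28 CPM in Lo (SD, n = 9) and 4.65 ± 0.91 CPM in Hi (SD, n = 11), a log2 fold change (Lo over Hi) of 0.24 with a standard error (SE) of 0.13 and an edgeR adjusted p of 0.948. Tet1 was at 22.4 ± 5.02 CPM in Lo (SD, n = 9) and 19.4 ± 2.28 CPM in Hi (SD, n = 11), a log2 fold change of 0.21 (SE 0.11, edgeR adjusted p = 0.968). The other 8 members had log2 fold changes between -0.02 (Dnmt1) and 0.12 (Uhrf1), with an edgeR adjusted p of 0.9997 each. None of these differences passed, and the Lo and Hi values overlapped in each member. For Tet1 the Lo median of 24.1 CPM lay above the highest Hi tumor, at 23.1 CPM, while the lowest Lo tumor had 12.9 CPM.

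Maintenance methylation is needed whenever DNA is replicated, so each member was set against a proliferation score, the mean z-score of 30 mitosis and S phase genes (among them Mki67, Top2a, Mcm2 and Pcna, none of them a member) scaled to an SD of 1. The slope is the change in log2 CPM per 1 SD of the score, from the same edgeR test with Lo and Hi as a covariate. Of 18853 genes, 112 had a positive and 26 a negative slope, which is 0.732% of the genes tested. Of the 10 members Uhrf1 was called, and it rose with the score.

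Uhrf1 (ENSMUSG00000001228, Chr17, 56303321 to 56323486, mm10) encodes the protein that reads hemimethylated CpG and histone H3 and recruits Dnmt1. Its lowest, median and highest values were 61.1, 65.6 and 84.8 CPM in Lo and 47.8, 61.9 and 85.4 CPM in Hi. The 3 tumors of lowest score, Hi 8, Hi 4 and Hi 11, had 47.8, 49.3 and 50.4 CPM, and the 2 of highest score, Lo 2 and Hi 1, had 84.8 and 85.4 CPM. Hi 2 and Lo 4, next below these in score, had 71.2 and 64.0 CPM. The lowest Uhrf1 tumors were thus the least proliferative ones by this score, and the groups overlapped, since the Lo range lay within the Hi range. Its slope was 0.21 (SE 0.03, edgeR adjusted p = 0.00139). Without any 1 tumor the slope stayed between 0.19 and 0.23, and the highest adjusted p was 0.0186, without Hi 8, where the number of genes called dropped to 41. With the mitosis genes alone as the score, the slope of Uhrf1 was 0.18 and its edgeR adjusted p 0.0695.

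As a correlation over the 20 tumors, log2 CPM of Uhrf1 and the score had Pearson's r = 0.877 and Spearman's rho = 0.755. The permutation p was 2e-05 for r and 0.00025 for rho, and 0.00662 and 0.0664 after adjustment over the 18853 genes, of which 0.923% passed on r. Within Lo r was 0.701 and within Hi 0.906. Without Hi 8 and Hi 4, the tumors farthest from the median score, r was 0.799 with an adjusted permutation p of 0.058. The interaction of group and score in edgeR (Lo slope minus Hi slope) was -0.02 (SE 0.08, adjusted p = 0.993) for Uhrf1, and it was called for none of the 18853 genes, while 796 had an unadjusted p under 0.05 and DESeq2 likewise called 0.

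Dnmt1 (ENSMUSG00000004099, Chr9, 20907206 to 20959888) is the methyltransferase that copies the mark. Its lowest, median and highest values were 98.4, 109 and 131 CPM in Lo and 91.7, 114 and 123 CPM in Hi, so the groups overlapped. The slope on the score was 0.09 (SE 0.03, edgeR adjusted p = 0.242) and was not called. The correlation was r = 0.566 and rho = 0.424 (adjusted permutation p = 0.262 and 0.567), with r = 0.076 within Lo and 0.851 within Hi. The slopes in Lo and Hi were compared by the interaction (-0.09, SE 0.07, edgeR adjusted p = 0.963).

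Hells (ENSMUSG00000025001, Chr19, 38930915 to 38971051) covered a wider range than Dnmt1. Its lowest, median and highest values were 19.8, 26.8 and 31.2 CPM in Lo and 15.8, 26.8 and 34.7 CPM in Hi. The lowest tumor was Hi 5 and the highest Hi 3, and the Lo range lay inside that of Hi. Its slope on the score was 0.16 (SE 0.06, edgeR adjusted p = 0.374), with r = 0.492 and rho = 0.481 (adjusted permutation p = 0.409 and 0.464). The least proliferative tumor, Hi 8, had 23.4 CPM of Hells, above the 15.8 CPM of Hi 5, so that the score and Hells did not order the tumors alike.

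The other 7 members had slopes between -0.07 (Tet2) and 0.08 (Dnmt3b, Tet1), with edgeR adjusted p-values from 0.83 to 0.9996. Uhrf1, Hells and Dnmt1 had the 3 steepest positive slopes of the members, and that of Uhrf1 passed the test over all genes. The slope of Dnmt1 (0.09) was close to those of Dnmt3b and Tet1. As a correlation, the eraser Tdg had rho = 0.573 and r = 0.399 with the score (adjusted permutation p = 0.322 and 0.59). Its rho was above the 0.481 of Hells and the 0.424 of Dnmt1. Tet1 had rho = 0.418, and the rest ran from 0.002 (Tet3) to 0.274 (Dnmt3b). The slopes of different members were not tested against each other.

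**Figure D2:**
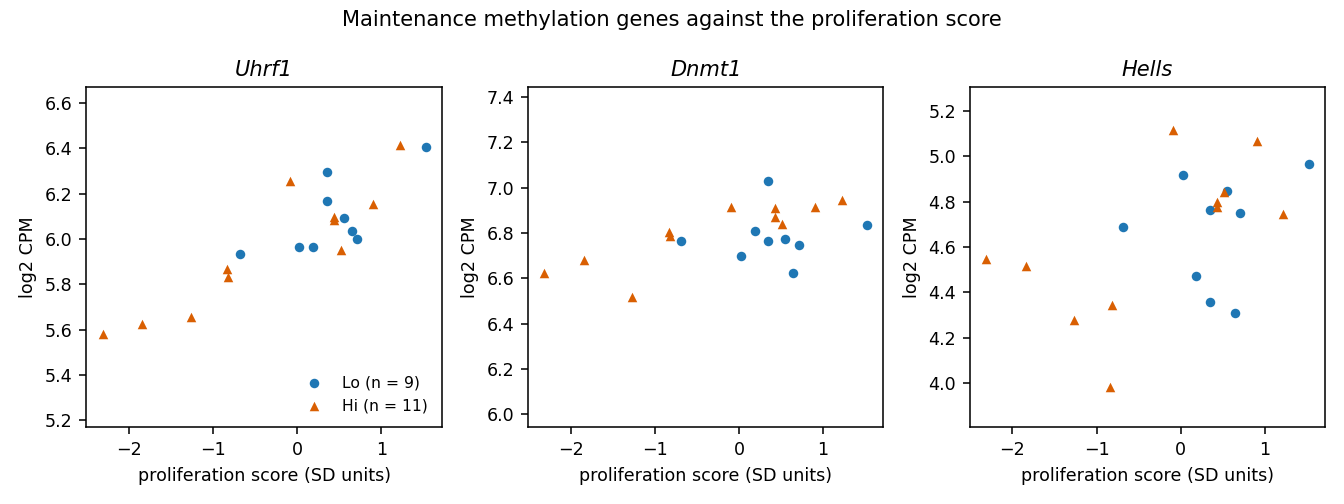
Log2 CPM of Uhrf1, Dnmt1 and Hells against the proliferation score (SD units) in the 9 Lo tumors (circles) and 11 Hi tumors (triangles), over y axes of equal length. Uhrf1 (slope 0.21 per SD) is lowest in Hi 8, Hi 4 and Hi 11, the tumors of lowest score. It is highest in Hi 1 and Lo 2, those of highest score. Between these ends it scatters, with 76.5 CPM in Hi 3 (score -0.09) and 64.0 CPM in Lo 4 (score 0.71). Dnmt1 spans a smaller range, and Hells scatters (r = 0.492).

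The promoters of the maintenance genes are shown because E2F factors, which drive genes at the start of S phase, are known to bind short words of the form TTT, then 2 bases that are C or G, then CGC. Promoter windows of RefSeq (GRCm38.p6), from 250 bases before to 50 bases after a start site, were searched for these words on both strands. The 10 members had 15 windows, of which 3 held such a word, 1 each of Dnmt1, Uhrf1 and Hells. Of all 32851 windows 2.26% held one. The word itself holds a CpG, and the 3 windows with it had 33 or 34 CpG, against a median of 7 over all windows. The 2.26% is thus not matched for CpG count, and a matched share was not computed. The windows of the other 7 members held none, which says no more than that these letters are not in them. In Uhrf1 the word lay 185 bases before start site 2, in a region that is intronic for transcripts from start site 1. The 250 bases before start site 2 read as follows, with the word in capitals.
Uhrf1, start site 2, chr17:56304063-56304312, plus strand: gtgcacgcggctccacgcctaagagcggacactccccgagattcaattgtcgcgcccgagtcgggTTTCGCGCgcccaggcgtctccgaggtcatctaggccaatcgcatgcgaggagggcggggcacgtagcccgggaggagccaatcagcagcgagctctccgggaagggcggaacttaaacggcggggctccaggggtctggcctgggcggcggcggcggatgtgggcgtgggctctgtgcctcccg

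The words of Hells and Dnmt1 are given with 10 bases on each side, or fewer at a window's end, for comparison. That of Hells starts 62 bases before the start site of RefSeq, in the 5′ UTR of a longer GENCODE transcript. Dnmt1 held 2 words at its start site 3, 1 on the opposite strand 219 bases before it (in capitals as the complement of the word) and 1 on its own strand 33 bases after it, each in an exon of GENCODE.
Hells, chr19:38930918-38930945, plus strand: accaccgggtTTTCCCGCgaaagagaag
Dnmt1, chr9:20952825-20952852, minus strand: gtttccgcgcGCGCGAAAaagccggggt
Dnmt1, chr9:20952574-20952600, minus strand: cggggcagcgTTTGGCGCgggctgtgc
These matches describe the sequence, and binding was not measured. A pair of other promoter words was searched. CCAAT stood in 6 of the 15 windows against 37.4% of all windows, and the CHR words TTTGAA or TTCGAA in 2 of 15 against 19.2%. The CpG count of the 15 windows ran from 2 at start site 1 of Dnmt1 to 57 at Tet2, against a median of 7 over all windows. The windows of Hells, Uhrf1 and Dnmt1 printed here in part held 34, 33 and 33.

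The genes most like the maintenance members across the 20 tumors were named by the highest Pearson's r of log2 CPM among the 13831 genes whose log2 CPM averaged 1 or more. For Uhrf1 these were Mcm10 (r = 0.920), which is needed to start replication, Chaf1a (r = 0.914), a subunit of the chromatin assembly factor of replicating DNA, and Ticrr (r = 0.913), a regulator of replication origins. Chaf1a lies on Chr17 like Uhrf1. For Dnmt1 they were Tdp1 (r = 0.874), a repair phosphodiesterase, Nup210 (r = 0.871) of the nuclear pore, and Hirip3 (r = 0.813), a histone binding protein. For Hells they were Dtl (r = 0.865), a substrate receptor that acts in S phase, Abce1 (r = 0.806), which recycles ribosomes, and Heatr3 (r = 0.792). The smallest adjusted permutation p that these ranks reached was 0.00944 for Uhrf1, 0.0472 for Dnmt1 and 0.0944 for Hells.

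Dnmt3b (ENSMUSG00000027478, Chr2, 153649450 to 153687730), the de novo enzyme of early development and of pericentromeric repeats, was set against the dosage of its chromosome, since a gain or loss of a chromosome in tumor cells shifts many of its genes at once. Dosage was read as the median centered log2 CPM of the 970 well-measured genes of Chr2, without Dnmt3b, minus that of all autosomal genes. The 16 tumors of lower Chr2 dosage lay between -0.05 and 0.04. Lo 1, Lo 11, Lo 8 and Lo 2 lay apart from them, at 0.12, 0.17, 0.20 and 0.23. These 4 tumors had 6.03, 5.79, 7.32 and 7.72 CPM of Dnmt3b. The other 16 had a lowest value of 3.41 CPM (Hi 5), a median of 4.58 CPM and a highest value of 6.92 CPM (Hi 2). Dnmt3b was thus high in the tumors of high Chr2 dosage, with Hi 2 between them, and the 2 highest tumors for Dnmt3b were the 2 highest for Chr2.

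As the tumors form 2 clusters by Chr2 dosage, no correlation over all 20 is given. Over the 16 tumors of lower dosage r was 0.681 (permutation p = 0.00637) and rho 0.5 (p = 0.0516), computed for Dnmt3b alone. Without Hi 2 and Lo 4, the farthest from the median, r was 0.553, and without Hi 2 alone 0.356, so that the value rests largely on that tumor. All 4 tumors of high Chr2 dosage are Lo, and the log2 fold change of 0.24 for Lo over Hi given above includes them. The 3 genes most like Dnmt3b over the 20 tumors are all on Chr2. They are Mcts2 (r = 0.861), an imprinted retrogene, Pank2 (r = 0.847), a pantothenate kinase, and Anapc1 (r = 0.843), a subunit of the anaphase-promoting complex, each with an adjusted permutation p of 0.0378. Their rho was 0.656, 0.654 and 0.728 and did not pass (adjusted permutation p = 0.204, 0.204 and 0.148), and these values include the 4 tumors that stand apart in Chr2 dosage.

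**Figure D3:**
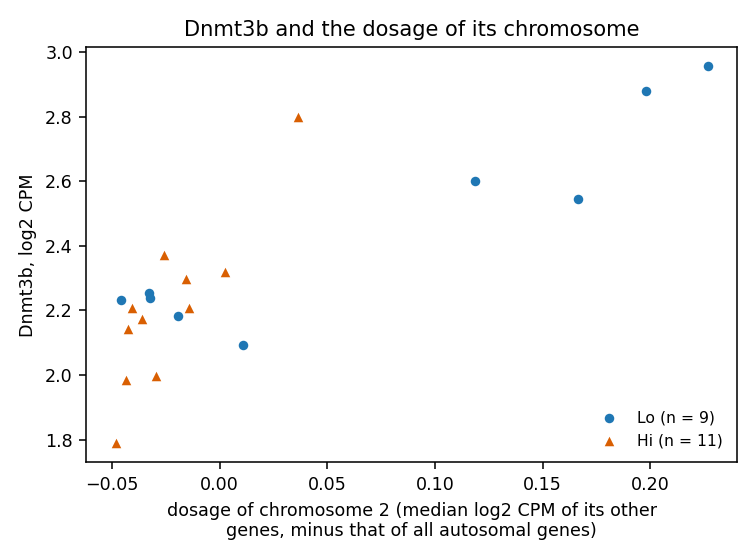
Log2 CPM of Dnmt3b against the dosage of Chr2 (median centered log2 CPM of its other genes minus that of all autosomal genes), for 9 Lo tumors (circles) and 11 Hi tumors (triangles). Lo 1, Lo 11, Lo 8 and Lo 2 stand apart at 0.12 to 0.23, and Hi 2 is the highest Dnmt3b value among the other 16.

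For the other 9 members the correlation with the dosage of their own chromosome ran from r = -0.557 for Tet3 on Chr6 (rho = -0.547, adjusted permutation p = 0.0744 and 0.107, r = -0.548 without the 2 farthest tumors, -0.486 within Lo and -0.687 within Hi) to r = 0.215 for Tdg on Chr10 (rho = 0.147, adjusted permutation p = 0.611 and 0.768). None of these 9 passed, while 11.7% of the 18228 autosomal genes tested did. Most of these chromosomes varied little, with an SD of dosage between 0.02 and 0.05, against 0.09 for Chr2. The widest gap between neighboring tumors was on Chr3, which carries Tet2. Lo 11 stood at a Chr3 dosage of 0.16 when the others reached at most 0.02, and its Tet2 level of 54.3 CPM lay within the range of 31.1 to 63.6 CPM of the other 19 tumors. A part of Chr3 dosage in the Tet2 level of this tumor was not tested.

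Dnmt3a (ENSMUSG00000020661, Chr12, 3806007 to 3914443) is the main de novo methyltransferase of adult tissues. Its lowest, median and highest values were 107, 121 and 138 CPM in Lo and 102, 119 and 138 CPM in Hi. The members were also set against scores of leukocyte, fibroblast, endothelial, adipocyte and epithelial markers in the same edgeR model, 1 score at a time. On the leukocyte score 424 genes had a positive and 72 a negative slope, 2.63% of 18870. Of the members Dnmt3a was called, with a slope of -0.11 (SE 0.03, edgeR adjusted p = 0.0325). Tet1 (-0.15, SE 0.05, edgeR adjusted p = 0.102) and Tet2 (-0.12, SE 0.05, edgeR adjusted p = 0.247) had steeper negative slopes that did not pass. The slopes of all other members were negative too, from -0.08 (Dnmt3b) to -0.004 (Tdg). The tumors of lowest leukocyte score, Lo 3 and Hi 1, had 138 and 137 CPM of Dnmt3a, and those of highest score, Hi 5 and Lo 4, had 104 and 119 CPM. This call is weak. It was lost without any 1 of 7 tumors (Lo 1, Lo 3, Hi 1, Hi 4, Hi 5, Hi 6 or Hi 10), with an adjusted p of up to 0.0824, and without a filter on low counts (0.0705), while DESeq2 gave 0.00484.

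No member was called on the fibroblast, endothelial, adipocyte or epithelial score, on which edgeR called 1.83%, 0.858%, 0.0583% and 2.7% of genes. Of these 40 slopes 6 had an unadjusted p under 0.05, each of them negative. Over all genes such a p was reached by 2028 of 18873 (fibroblast), 1608 of 18874 (endothelial), 1344 of 18876 (adipocyte) and 4028 of 18873 (epithelial), so this count is near the background. The 6 were Tet2 on the fibroblast (-0.14, SE 0.05, edgeR adjusted p = 0.204), endothelial (-0.13, adjusted p = 0.43) and epithelial scores (-0.11, adjusted p = 0.198), Uhrf2 on the fibroblast score (-0.06, adjusted p = 0.381), Dnmt3b on the adipocyte score (-0.16, adjusted p = 0.593) and Tet3 on the epithelial score (-0.11, SE 0.03, adjusted p = 0.0616). The genes most like Dnmt3a were Cux1 (r = 0.857), a homeobox transcription factor, Tnfaip3 (r = 0.855), an inhibitor of NF-kappaB signaling, and 3632451O06Rik (r = 0.819), with adjusted permutation p-values of 0.0315, 0.027 and 0.027. Exons of Dnmt3a share 133 bases with the antisense gene Dnmt3aos, and how strand was used in counting is not given in the sources used here.

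Tet2 and Tet3 varied together. Tet2 (ENSMUSG00000040943, Chr3, 133463679 to 133544390) had lowest, median and highest values of 35.4, 46.8 and 59.4 CPM in Lo and 31.1, 41.8 and 63.6 CPM in Hi. Tet3 (ENSMUSG00000034832, Chr6, 83362373 to 83459084), the TET gene of the zygote and of many adult tissues, had 86.0, 94.2 and 118 CPM in Lo and 74.1, 96.0 and 112 CPM in Hi. Hi 7 was the lowest tumor for both genes. Hi 4, the highest for Tet2, was the second highest for Tet3, and the groups overlapped for both.

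Over the 20 tumors log2 CPM of Tet2 and Tet3 had r = 0.773 and rho = 0.750, with a permutation p of 9e-05 for r. Adjusted over the 18882 genes set against Tet2, the p was 0.0172 for r and 0.0318 for rho, and over those set against Tet3 0.00622 and 0.0132. The value was 0.750 within Lo and 0.777 within Hi, and 0.659 or 0.714 when the 2 tumors farthest from the median of Tet2, or of Tet3, were left out. With the proliferation score taken out of both genes it was 0.792. Broad sets of genes passed the same test: 4.24% of genes for Tet2 and 10.1% for Tet3, against 0.694% for Uhrf1, 0.201% for Dnmt3b, 0.101% for Dnmt3a, 0.0636% for Tet1, 0.0424% for Dnmt1 and 0% for Hells, Uhrf2 and Tdg. Tet2 ranked 172nd among the partners of Tet3, and Tet3 65th among those of Tet2.

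Both genes followed the nuclear-retained RNA score, the mean z-score of Malat1, Neat1 and Kcnq1ot1, long RNAs that stay in the nucleus. The slope of Tet2 was 0.20 (SE 0.04, edgeR adjusted p = 0.000952) and that of Tet3 0.15 (SE 0.02, edgeR adjusted p = 0.000178). In the 2 tumors of lowest score, Hi 7 and Lo 4, Tet2 was at 31.1 and 35.4 CPM and Tet3 at 74.1 and 86.0 CPM. In the 2 of highest score, Hi 4 and Lo 8, Tet2 was at 63.6 and 51.3 CPM and Tet3 at 112 and 110 CPM. Lo 11 departs from this order for Tet2, with 54.3 CPM at a score below which stood 2 tumors. Hi 8 and Lo 6, at nearby scores, had 41.1 and 39.7 CPM. Lo 11 is also the tumor of high Chr3 dosage named above, and a link between these was not tested. This score called 16.9% of 18880 genes (2030 positive and 1169 negative), so 2 of 10 members is near the background, and the other 8 were not called (edgeR adjusted p from 0.206 to 0.838).

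The summed level of the 4 listed nuclear RNAs ran from 1829 to 4801 CPM in Lo and from 1700 to 5801 CPM in Hi, so the groups overlapped, and Miat, the fourth, was too low to be tested. The score moved against the epithelial score (r = -0.691, rho = -0.779, adjusted permutation p = 0.0112 and 0.00504 over 36 pairs of scores and library measures, r = -0.728 without the 2 farthest tumors, -0.626 within Lo and -0.759 within Hi). With the share of the ribosomal RNA locus, it had r = 0.119 (rho = 0.223, adjusted permutation p = 0.982 and 0.868). Here r was -0.210 within Lo and 0.646 within Hi, so the value over all tumors joins groups of opposite sign. The part of either in the slopes of Tet2 and Tet3 was not tested, except that with the ribosomal share as a covariate their slopes were 0.20 and 0.15. Without any 1 tumor both calls held, with adjusted p-values of up to 0.00599 for Tet2 and 0.00129 for Tet3, and with Malat1 alone or without Malat1 as the score both held as well.

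**Figure D4:**
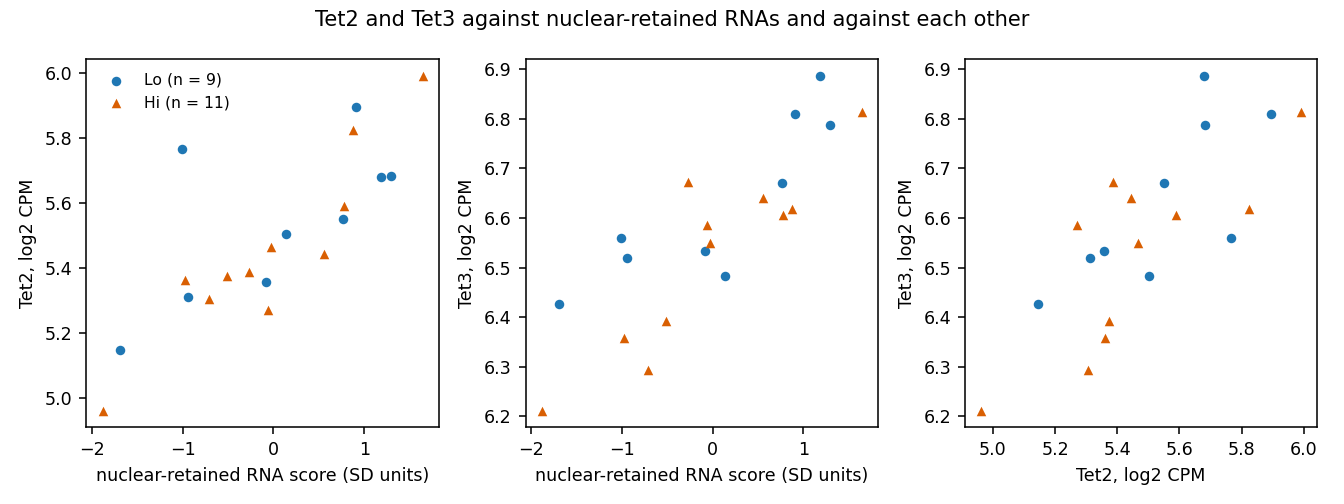
Log2 CPM of Tet2 (left) and Tet3 (middle) against the nuclear-retained RNA score in SD units, and of Tet3 against Tet2 (right), in 9 Lo tumors (circles) and 11 Hi tumors (triangles). Both genes climb along the score, with slopes of 0.20 and 0.15 per SD, and Lo 11 lies above the other tumors of low score for Tet2.

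The genes most like Tet3 were Kmt2a (r = 0.910), a histone H3 lysine methyltransferase with a CXXC domain that binds unmethylated CpG, Cramp1l (r = 0.910) and 4930579G18Rik (r = 0.899), each with an adjusted permutation p of 0.0029. For Tet2 they were Gm17132 (r = 0.892), Rreb1 (r = 0.867), a zinc finger transcription factor, and Gm27694 (r = 0.856), each with an adjusted permutation p of 0.0139. Tet1, which is best known from embryonic stem cells, ran from 12.9 to 28.9 CPM in Lo with a median of 24.1 CPM, and from 15.4 to 23.1 CPM in Hi with a median of 19.5 CPM. Its lowest and highest tumors, Lo 1 and Lo 3, are both Lo. Its nearest genes were Utrn (r = 0.872), which encodes utrophin and lies on Chr10 like Tet1, Klf12 (r = 0.825) and Hist2h2bb (r = 0.814), each with an adjusted permutation p of 0.027.

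Tdg and Uhrf2 showed no relation that passed. Tdg ran from 18.1 to 22.5 CPM in Lo and from 18.2 to 22.2 CPM in Hi. It was nearest to Vbp1 (r = 0.860), a subunit of prefoldin, Gm10131 (r = 0.830) and Cops2 (r = 0.791), a subunit of the COP9 signalosome, each with an adjusted permutation p of 0.0539. Exons of Tdg share 367 bases with Glt8d2 on the opposite strand. Uhrf2 ran from 59.7 to 80.2 CPM in Lo and from 60.2 to 71.1 CPM in Hi, and its nearest genes, Cxadr (r = 0.788), Cdk17 (r = 0.760) and G2e3 (r = 0.759), had an adjusted permutation p of 0.555 each. Uhrf2 and its paralog Uhrf1 had r = -0.007 and rho = -0.003, and Uhrf1 was on the variable side where Uhrf2 was on the steady side of genes at their level.

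Among the 45 pairs of members 33 had a positive r, with a median of 0.22 and a range from -0.284 (Tet3 and Tdg) to 0.773 (Tet2 and Tet3). The pair of Tet2 and Tet3 was the 1 that passed with either gene as the reference. Dnmt1 and Uhrf1 came next, with r = 0.685 and rho = 0.654 (adjusted permutation p for r of 0.182 against the genes set beside Dnmt1 and 0.0759 against those set beside Uhrf1), r = 0.361 within Lo and 0.905 within Hi. On log2(RPKM + 1) with plain totals in place of TMM this pair had r = 0.770 and passed, and with the proliferation score taken out it had r = 0.476 and did not. Dnmt3a and Tet1 had r = 0.643 and rho = 0.668 (larger adjusted permutation p of 0.126 and 0.125), with 0.877 within Lo and 0.516 within Hi. The 2 de novo enzymes, Dnmt3a and Dnmt3b, had r = 0.080. Dnmt1 and Tdg, a writer and an eraser, had r = -0.257, which became -0.639 with the proliferation score taken out (rho = -0.681, larger adjusted permutation p of 0.087 and 0.0742) and 0.504 with plain totals, so its sign depended on the scaling.

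**Figure D5:**
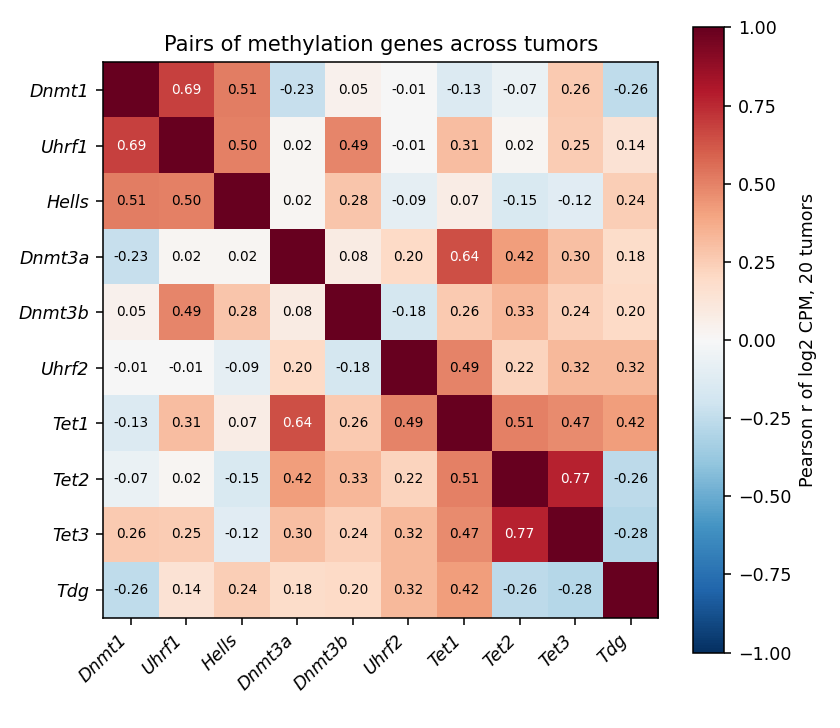
Pearson's r of log2 CPM over the 20 tumors for each pair of members (red positive, blue negative, from -1 to 1). Pairs among Dnmt1, Uhrf1 and Hells lie at 0.50 to 0.69 and those among Tet1, Tet2 and Tet3 at 0.47 to 0.77, with Dnmt3a and Tet1 (0.64), Uhrf2 and Tet1 (0.49) and Uhrf1 and Dnmt3b (0.49) as high, and of the 45 pairs Tet2 with Tet3 passed the test over all genes.

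The genes that work beside the members were taken as lists: 7 readers of methylated CpG, 10 partners of the writers, 8 TET partners and genes of cofactor supply, 12 base excision genes, 10 genes of methyl donor supply, and 16 germline genes that promoter methylation is known to silence in somatic cells. None of their measured members was called between Lo and Hi or on the leukocyte score. The median slopes on the proliferation score were 0.06 for TET partners and cofactor supply, 0.05 for the 9 tested partners of the writers and 0.05 for methyl donor supply. They were -0.02 for the readers, -0.02 for base excision and -0.01 for the 4 tested germline genes, against -0.01 over all genes.

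On the nuclear-retained RNA score Ogt, the O-GlcNAc transferase that binds TET proteins, had a steeper slope than Tet2 and Tet3 themselves. It rose by 0.36 per SD (SE 0.03, edgeR adjusted p = 6.65e-07), from 187 CPM in Lo 4 to 483 CPM in Hi 4. On the epithelial score, which runs against this one, Ogt fell by 0.24 (SE 0.06, edgeR adjusted p = 0.0446). Sycp1 (0.33), a synaptonemal complex gene, Zfp57 (0.27), which protects methylation at imprinted regions, and Mbd4 (0.12), a glycosylase for T opposite G at CpG, also rose with the nuclear-retained RNA score, and the reader Mbd2 fell by 0.09 per SD. These were 1 of 8 TET partners, 1 of 4 tested germline genes, 1 of 9 partners of the writers, 1 of 12 base excision genes and 1 of 7 readers, against the background of 16.9%. The median slopes of these 5 lists lay between -0.03 and 0.04, and that of all genes at -0.01. Elsewhere Gadd45g rose with the endothelial score (0.35, edgeR adjusted p = 0.0289), Mbd2 with the epithelial score (0.10, edgeR adjusted p = 0.039), and Sycp1 fell with the fibroblast score (-0.35, edgeR adjusted p = 0.0468).

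Most germline genes of the last list had few or no counts in these tumors. Dnmt3l, the inactive partner of Dnmt3a and Dnmt3b in germ cells, ran from 0.213 to 0.716 CPM on 11 to 40 reads. Of the 16 germline genes 12 were too low to be tested. Asz1 had 0 counts in every tumor, and Dazl, Mael, Hormad1 and Rpl10l had at most 2 counts in a tumor. A count of 0 allows up to 3 counts in that tumor. Sycp3 (3.40 to 9.35 CPM), Brdt (2.99 to 4.95 CPM), Sycp1 (0.902 to 3.17 CPM) and Piwil2 (0.113 to 0.417 CPM) were counted in all 20 tumors.

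Tex11, a meiotic gene of ChrX, was the most uneven gene of the list. It had 228 counts in Lo 11 (4.32 CPM), 113 in Lo 8 (2.20 CPM) and 41 in Lo 1 (0.756 CPM), and 12 counts in each of Hi 1 and Hi 8. It had 6 counts or fewer in the other 15 tumors. Levels of Dnmt1 and Uhrf1 in the 3 tumors of highest Tex11 were 98.4 and 65.6 CPM in Lo 11, 109 and 78.6 CPM in Lo 8, and 109 and 61.1 CPM in Lo 1. These lay within the range of the other tumors for both genes. Dnmt3b was at 5.79, 7.32 and 6.03 CPM in Lo 11, Lo 8 and Lo 1, which are 3 of the 4 tumors of high Chr2 dosage. The fourth, Lo 2, had the highest Dnmt3b level (7.72 CPM) and 0 counts of Tex11. A relation of Tex11 to Dnmt3b or to Chr2 was not tested.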

How the data were processed

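RNA of 20 tumors was sequenced from TruSeq mRNA libraries. Per the labels and methods, reads were aligned to mm10 with TopHat2 2.0.12 and counted with featureCounts 1.4.4 (the notes also list hg19). The authors deposited raw counts per gene, without normalization, for 43346 genes. Neither the annotation release nor the use of strand in counting is given in the sources used here. Depth was 38765682 to 65465755 counts per tumor.

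Genes were kept by filterByExpr (18883) and scaled by TMM, and log2 CPM had a prior count of 2. The edgeR 4.0.16 quasi-likelihood test was the main test, with DESeq2 1.42.0 as an alternative (R 4.3.3). A gene in a score was left out of that score's test. Correlations used 100000 two-sided permutations of the tumors (smallest p 1e-05) and Benjamini-Hochberg adjustment over all genes, in Python 3.11.15 with numpy 2.4.6. The threshold was an adjusted p of 0.05. Named genes were the 10 members, the 3 genes most like each, and genes of the lists past the threshold, up to 8 per comparison. Sparse germline genes and Dnmt3l were named after their values were seen. Sequences came from RefSeq promoter windows (GRCm38.p6) and exon overlaps from GENCODE M21. All 10 members matched. Scripts were tested on simulated data.

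The members and lists were chosen with earlier results of these data known. The result of 1 list gene on the proliferation score is not reported here. Lo and Hi tumors share numbers in their names, and same-numbered tumors did not deviate together (r from -0.359 to 0.269), so the main tests carry no block. Nothing says that any tumors share a cage or litter, and each came from its own mouse.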

Additional observations from a re-analysis of the deposited data

Results flagged for a closer look

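Dnmt1 in Lo 7 stood apart from the other 8 Lo tumors, at 131 CPM against 114 CPM in the next highest (Lo 2), a gap of 0.518 of the range of the group. Such a gap is reached by chance in about 1 of 20 groups, and 10 genes were looked at, so this value alone is not unusual. The Hi group, with 11 tumors, was not looked at in this way.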

How the results depend on the processing

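The number of genes called between Lo and Hi went from 0 to 1 with DESeq2 and to 1 without a filter on low counts, and none of the 10 members was called under these or the other alternatives. On the proliferation score the count of 138 became 337 with DESeq2, 41 without Hi 8 (41 to 157 over the fits that leave out 1 tumor) and 50 with the shared number as a replicate block, where the adjusted p of Uhrf1 was 0.0519. On the leukocyte score 496 became 1023 with DESeq2, 7 with the replicate block (Dnmt3a 0.176), and 201 to 610 when 1 tumor was left out, lowest without Hi 5 and also under the main count by over 1.5 times without Lo 3, Lo 4 or Hi 10. On the nuclear-retained RNA score 3199 became 999 with the replicate block, and Tet2 and Tet3 stayed called (0.0198 and 0.0416). Of 9 shared numbers 3 had a correlation over 0.1, and 3 of the 18 tumors correlated best with their own number, so the block rests on a number alone.

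Genes correlated with the proliferation score went from 174 to 307 on log2(RPKM + 1) with plain totals, where Dnmt1 passed (r = 0.678, adjusted permutation p = 0.0479), and to 12 without Hi 8 and Hi 4. Genes correlated with the dosage of their own chromosome went from 2133 to 522 without the 2 farthest tumors of each gene. Pairs of members that passed went from 1 to 3 with plain totals, adding Dnmt1 with Uhrf1 and with Tet3. No called direction reversed, and the order of the levels kept all 9 neighbors with plain totals and without the ribosomal RNA locus. Both of these alternatives keep the listed gene lengths. The order with the longer lengths of GENCODE M21 was not computed. Depth limits Dnmt3b most, at 159 to 503 reads per tumor.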
